A study of Equus caballus with 10 samples.

Results

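Homeostatic chemokines are small proteins that guide and hold cells in tissues in the absence of injury, in contrast to the inflammatory chemokines that draw leukocytes to a wound. The genes described here are 4 ligands, CXCL12, CXCL14, CXCL16 and CX3CL1, and 3 receptors, CXCR4, ACKR3 and ACKR4. They were taken by gene name from a table of 29196 genes of cultured horse tendon cells, and 7 of 7 were found. RNA was sequenced from tenocytes of adult horses grown for 14 days in 3D collagen gels in the presence of PF-06650833 by itself (PF alone) or of PF-06650833 together with IL-1β (PF + IL-1β). PF-06650833 inhibits IRAK-4, a kinase that passes on the signal of the IL-1 receptor, and cells of both groups received it daily at 100 nM. IL-1β was given to 1 group only, at 17 ng/ml every 3 to 4 days. Each of 5 tenocyte lines from different horses gave 1 library to each group, and the lines are numbered 1 to 5 in the order 090811, 130911, 180412, 250718B and CD of the labels. Because both groups contain the inhibitor, the comparison asks how these genes differ with IL-1β while IRAK-4 is inhibited. Libraries of untreated cells or of IL-1β alone were not used here.

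CXCL12 signals through CXCR4, and in connective tissue it retains and recruits progenitor cells and leukocytes. ACKR3 and ACKR4 are atypical receptors, which bind and internalise chemokines without the usual G protein signal and so lower the amount of ligand around a cell. ACKR3 takes up CXCL12 and CXCL11, and ACKR4 takes up CCL19, CCL21 and CCL25. CXCL16 and CX3CL1 are made as transmembrane proteins that can be cut from the cell surface, and they bind CXCR6 and CX3CR1. CXCL14 is a conserved chemokine of epithelia and fibroblasts whose receptor is not settled.

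The values are log2 expression after variance stabilization, on which 0 reads correspond to 3.43, and the thresholds were those of the study, an adjusted p under 0.05 with a log2 fold change of 1 or more in either direction. They were met by 1202 of the 17992 tested genes (6.68%), 560 of them higher (3.11%) and 642 lower (3.57%) with PF + IL-1β. Of 10 tested genes that mark tenocytes 0 rose and 5 fell, with a median log2 fold change of -1.71. With the line as a replicate block 7 fell, where 765 of all 17992 tested genes fell and 8.26% passed in either direction. COL1A1 was between 18.07 and 19.51 with PF alone and between 16.64 and 18.68 with PF + IL-1β, lower in 5 of 5 lines (log2 fold change -1.38, adjusted p = 0.0682, and 0.0147 with the block, from limma). DCN, picked out after its values had been seen, was higher in 5 of 5 lines (1.01, adjusted p = 0.268), and TNMD was listed at the value of 0 reads in all 10 libraries. SCX fell, from between 10.23 and 12.18 with PF alone to between 6.88 and 8.51 with PF + IL-1β (log2 fold change -3.24, adjusted p = 6.11e-04 from limma), and MKX fell too (-2.85, adjusted p = 0.00554). The RNA came from whole gels, so fewer cells of a type and less RNA per cell cannot be told apart.

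Of the 7 genes, CXCL14 rose and ACKR4 fell with PF + IL-1β, and the other 5 did not pass the thresholds. These 2 of 7 stand beside the 6.68% of all tested genes, and the 7 genes were chosen with earlier results of these data known. All 7 had reads in at least 5 libraries and were tested, and CXCR4 met that filter mainly through the libraries with IL-1β. The groups did not overlap for ACKR4 and overlapped for the other 6 genes, and the share of non-overlapping groups was 12.7% over all tested genes, and 6.41% for genes lower with PF + IL-1β. The log2 fold change had a median of 0.75 over the 7 genes and of -0.01 over all tested genes.

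**Figure D1:**
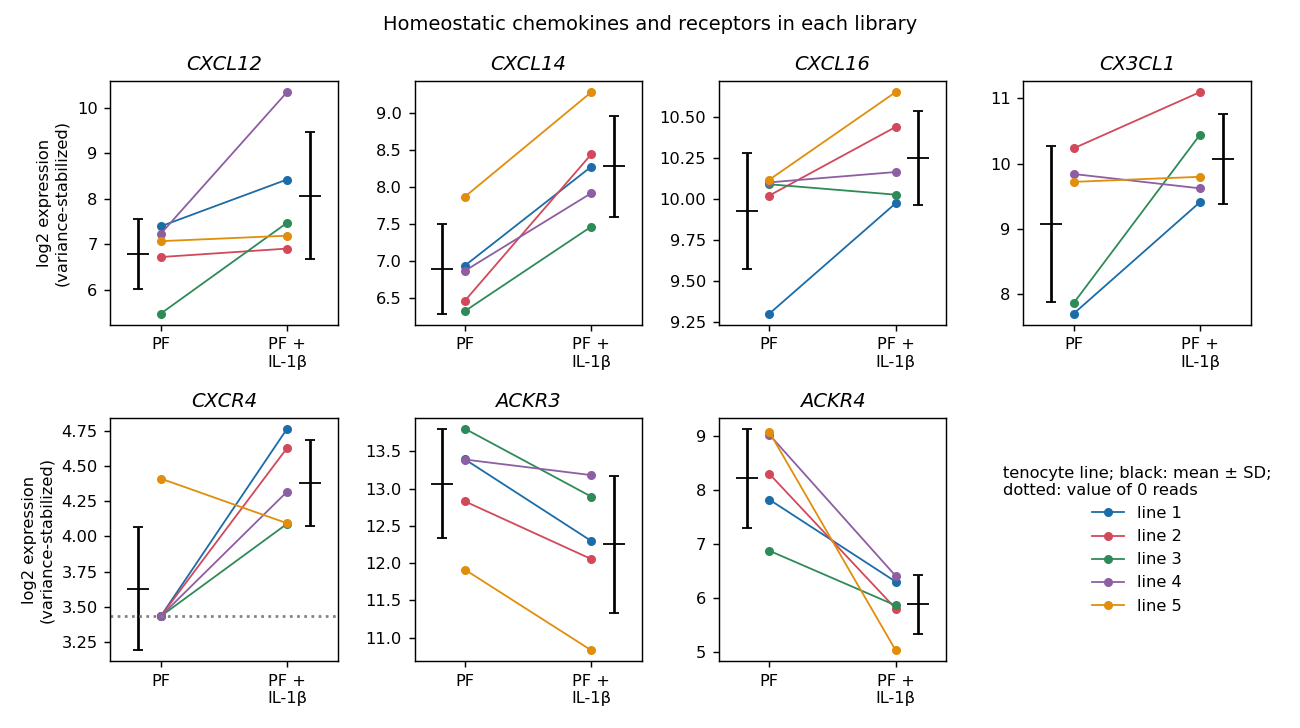
Log2 expression (variance-stabilized) of the 7 genes in each of 10 libraries, with PF alone (PF) and with PF + IL-1β. Coloured lines join the libraries of 1 tenocyte line, black marks give the mean ± SD of 5 libraries, and the vertical axes differ between panels. ACKR4 was lower and CXCL14 higher with PF + IL-1β in 5 of 5 lines, and with PF alone 4 libraries had no reads of CXCR4 (value 3.43).

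CXCL12, the ligand of CXCR4 and ACKR3, had log2 values of 7.40, 6.72, 5.48, 7.23 and 7.07 in lines 1 to 5 with PF alone. With PF + IL-1β the values of the same lines were 8.42, 6.91, 7.47, 10.34 and 7.19. Each line was higher with IL-1β, but the groups overlapped, and line 4 stood above all other libraries. The group means were 6.78 ± 0.77 (SD, n = 5) and 8.07 ± 1.39 (SD, n = 5), and the log2 fold change was 1.29 (standard error 0.62, 95% interval -0.07 to 2.64, adjusted p = 0.190 from limma). The differences within lines ran from 0.12 in line 5 and 0.18 in line 2 to 1.03 in line 1, 1.99 in line 3 and 3.11 in line 4. In line 4 the normalised count was 130 with PF alone and 1272 with PF + IL-1β, whereas in line 2 it was 85.2 and 99.5. Without the library of line 4 with IL-1β the log2 fold change was 0.72, and without line 4 it was 0.83. Of all tested genes, 16.0% were higher in all 5 lines. With every line kept and the line as a replicate block, the 95% interval of CXCL12 was 0.29 to 2.28. The adjusted p was then 0.0677 from limma, which did not pass.

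CXCL14, the fibroblast and epithelial chemokine, was at 6.94, 6.47, 6.33, 6.87 and 7.87 in lines 1 to 5 with PF alone, and at 8.28, 8.45, 7.47, 7.92 and 9.29 with PF + IL-1β. The groups overlapped only because line 5 was high and line 3 low in both, and each line was higher with IL-1β. CXCL14 rose from 6.90 ± 0.61 (SD, n = 5) to 8.28 ± 0.68 (SD, n = 5), by 1.39 on the log2 scale (standard error 0.37 and adjusted p = 0.0264 from limma). The differences within lines lay between 1.05 and 1.98, the narrowest range relative to its median of the ligands. The mean normalised count was 108 with PF alone and 320 with PF + IL-1β, a ratio of 2.96. The fit was repeated 15 times without each line or each library, and CXCL14 lost the call in 10 of them. These were the fits without line 1, 2 or 4, without the PF alone library of line 1, 2, 3 or 4, and without the PF + IL-1β library of line 1, 2 or 5, with log2 fold changes between 1.13 and 1.47 and adjusted p-values between 0.0515 and 0.128 from limma. With the line as a replicate block, CXCL14 rose with an adjusted p of 0.00180 from limma, where 8.26% of all tested genes passed, and it still rose whichever line was left out (adjusted p between 0.00319 and 0.0130).

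CXCL16, a transmembrane chemokine and scavenger receptor, was at 9.30, 10.02, 10.09, 10.10 and 10.12 in lines 1 to 5 with PF alone and at 9.97, 10.44, 10.03, 10.17 and 10.65 with PF + IL-1β. The groups overlapped, line 1 was lowest in both, and line 3 had nearly the same value in both. The means were 9.93 ± 0.35 (SD, n = 5) and 10.25 ± 0.29 (SD, n = 5), with a log2 fold change of 0.33 (95% interval -0.08 to 0.73, adjusted p = 0.273 from limma). The upper end of this interval lies below the minimum fold change of 1. With the line as a replicate block the 95% interval was 0.03 to 0.62 (adjusted p = 0.106 from limma). CXCR6, which encodes its receptor, never exceeded 5 estimated reads, with a log2 fold change of 0.09 (adjusted p = 0.839 from limma).

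CX3CL1, the membrane-anchored chemokine fractalkine, was at 7.71, 10.23, 7.87, 9.84 and 9.72 in lines 1 to 5 with PF alone. With PF + IL-1β it was at 9.41, 11.09, 10.44, 9.62 and 9.80. The groups overlapped, and lines 1 and 3 were far below the other lines with PF alone but not with IL-1β. These lines had the largest differences, 1.71 in line 1 and 2.57 in line 3, against 0.86 in line 2, 0.08 in line 5 and -0.22 in line 4. The log2 fold change was 1.00 (standard error 0.53, 95% interval -0.16 to 2.16, adjusted p = 0.234 from limma), from 9.07 ± 1.19 (SD, n = 5) to 10.07 ± 0.69 (SD, n = 5). Without line 3 the log2 fold change was 0.61, and without the PF alone library of line 1 it was 0.66. With every line kept and the line as a replicate block, the 95% interval was 0.12 to 1.88. The adjusted p was then 0.0995 from limma, which did not pass. CX3CR1, which encodes its receptor on leukocytes, was listed at the value of 0 reads in 9 of 10 libraries and had 2 estimated reads in the other.

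ADAM10 and ADAM17 encode the proteases that cut CX3CL1 and CXCL16 from the cell surface. ADAM10 was between 11.65 and 12.03 with PF alone and between 12.09 and 12.43 with PF + IL-1β, so the groups did not overlap. Its log2 fold change of 0.49 (adjusted p = 0.00851 from limma) is below the minimum fold change, and that of ADAM17 was 0.22 (adjusted p = 0.107). CXCR6, CX3CR1 and both proteases were picked out for this account after their values had been seen.

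**Figure D2:**
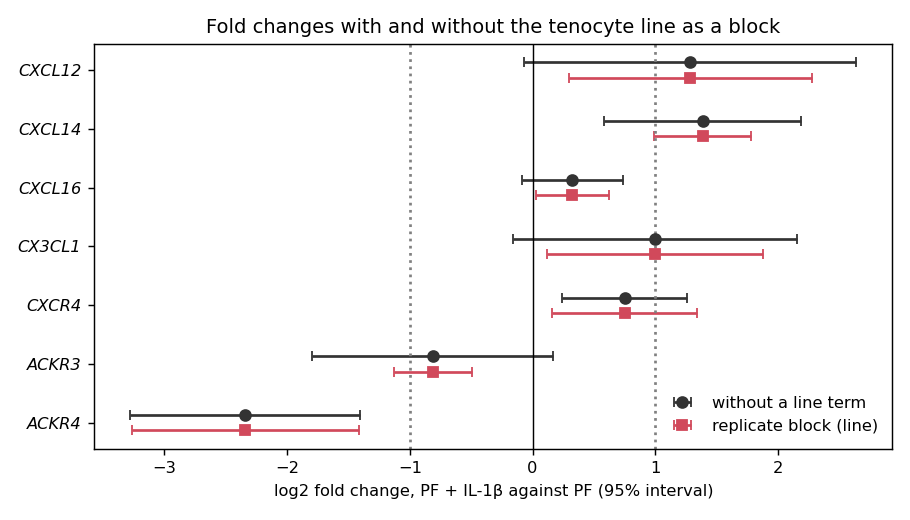
Log2 fold changes of the 7 genes, PF + IL-1β against PF alone (PF), with 95% intervals from limma without a line term (circles) and with the tenocyte line as a replicate block (squares). Dotted lines mark the minimum fold change of 1 in either direction. The block narrows the interval of ACKR3 from -1.80 to 0.17 down to -1.13 to -0.49, while those of CXCR4 and ACKR4 change little.

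CXCR4, the signalling receptor of CXCL12, was close to the limit of detection. It had 0 estimated reads in lines 1 to 4 and 5 reads in line 5 with PF alone. With PF + IL-1β it had 8, 7, 2, 3 and 2 reads in lines 1 to 5, or 22 in all. The means were 3.63 ± 0.44 (SD, n = 5) and 4.38 ± 0.31 (SD, n = 5), a difference of 0.75 on the log2 scale (standard error 0.23 and adjusted p = 0.0514 from limma). Lines 1 to 4 were higher with IL-1β and line 5 was lower, by -0.32. Without line 5 the log2 fold change was 1.02 (adjusted p = 0.0152 from limma), which passes the thresholds. Every library left with PF alone was then at the value of 0 reads, and every library with IL-1β had reads. The groups thus had to differ, and passing without line 5 is no support for a difference. With that line included CXCR4 did not pass. Variance stabilization compresses differences at such levels. On a log2 scale of the normalised count + 0.5 the log2 fold change was 2.62 (adjusted p = 0.0448 from limma). With + 1 it was 1.95 and did not pass (adjusted p = 0.0544 from limma, and 0.0757 with the line as a replicate block). CXCR4 met the filter on reads mainly through the libraries with IL-1β, so the pass with + 0.5 is no support for a difference.

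CXCR4 is best known on leukocytes, and the leukocyte markers were measured beside it. Of the 10 markers, CD3E, MS4A1 and TYROBP were at the value of 0 reads in all 10 libraries, and PTPRC, the defining pan-leukocyte gene, in 9 of 10. CSF1R had reads in 1 library and CD163 in 3. The summed normalised count of the 10 markers was between 222 and 318 with PF alone and between 345 and 939 with PF + IL-1β, higher in 5 of 5 lines. CD68, a lysosomal protein, was the marker of the 4 tested that rose, with a log2 fold change of 1.70 (adjusted p = 0.00795 from limma). The part of these markers in the CXCR4 values was not tested.

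ACKR3, the scavenging receptor of CXCL12, was at 13.39, 12.83, 13.80, 13.39 and 11.91 in lines 1 to 5 with PF alone. With PF + IL-1β it was at 12.30, 12.05, 12.89, 13.18 and 10.83. Each line was lower with IL-1β, but line 5 was lowest in both groups and the groups overlapped. The means were 13.06 ± 0.73 (SD, n = 5) and 12.25 ± 0.91 (SD, n = 5), a difference of -0.81 on the log2 scale (standard error 0.45 and adjusted p = 0.254 from limma). With the line as a replicate block the standard error was 0.14 and the adjusted p was 0.00584 from limma, which passes the threshold on p but not the minimum fold change. Without the PF + IL-1β library of line 5 and without the block, the log2 fold change was -0.46. With the block, 22.2% of all tested genes had an adjusted p below 0.05. Of all tested genes, 16.8% were lower in all 5 lines. The differences within lines were -1.09, -0.77, -0.91, -0.21 and -1.08 in lines 1 to 5, so that line 4 differed least. The mean normalised count was 9349 with PF alone and 5574 with PF + IL-1β.

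ACKR4, the scavenging receptor of CCL19, CCL21 and CCL25, was at 7.82, 8.29, 6.87, 9.02 and 9.07 in lines 1 to 5 with PF alone. With PF + IL-1β it was at 6.30, 5.80, 5.86, 6.40 and 5.02, below every library of the other group. ACKR4 fell from 8.21 ± 0.92 (SD, n = 5) to 5.87 ± 0.55 (SD, n = 5), or -2.34 on the log2 scale (standard error 0.43 and adjusted p = 0.00467 from limma). Its change was rank 288 by size among the 17992 tested genes. The differences within lines were -1.52, -2.50, -1.01, -2.62 and -4.05 in lines 1 to 5. Line 5 had the highest value with PF alone and the lowest with IL-1β, whereas line 3 started lowest and changed least. The estimated reads fell from between 73 and 492 to between 12 and 47 per library. ACKR4 passed the thresholds in each of the 15 fits without a line or a library, with log2 fold changes between -2.68 and -1.91 and adjusted p-values between 0.00133 and 0.0328 from limma.

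Of the ligands of ACKR4, CCL19 was tested and had between 0 and 54 estimated reads per library, with a log2 fold change of 0.25 (95% interval -0.96 to 1.46, adjusted p = 0.813 from limma). CCL25 had reads in 4 of 10 libraries and was not tested, and CCL21 is a gene name not analysed here. These ligands, too, were picked out after their values had been seen.

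The 7 genes differed in how much of their variation followed the treatment and how much the line. Over the 10 libraries, treatment took 75.1% of the sum of squares of ACKR4, 59.2% of that of CXCL14 and 55.1% of that of CXCR4. For ACKR3 the line took 73.1% and the treatment 23.2%. CXCL16 (57.7%), CX3CL1 (48.7%) and CXCL12 (48.3%) also had their largest part between lines. With 5 lines against 2 groups, however, the line takes a larger share than the treatment even where neither has an effect. The shares of line and treatment therefore cannot be compared with each other directly. The rest, left after both, was 3.27% for CXCL14 and 3.69% for ACKR3, and 22.7% for CXCL12 and 26.5% for CX3CL1, whose differences varied from line to line.

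**Figure D3:**
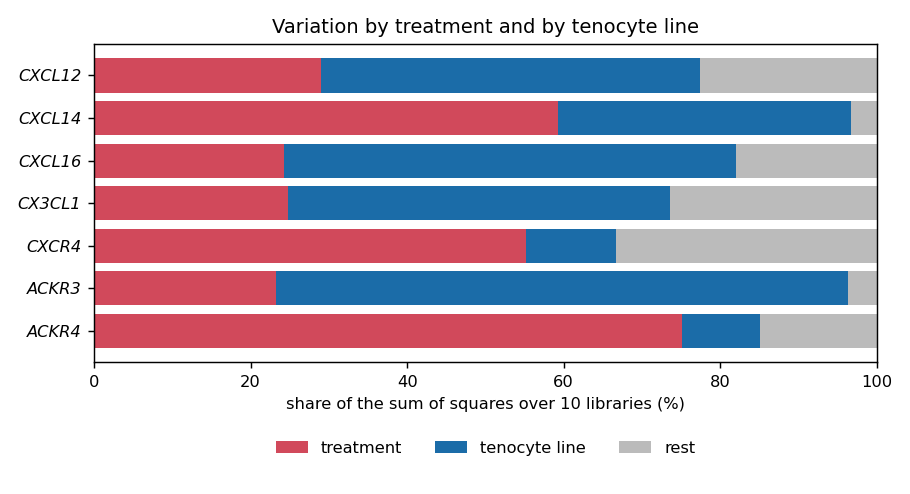
Share of the sum of squares of log2 expression over 10 libraries taken by treatment, by tenocyte line and by the rest, for each of the 7 genes. Treatment has the largest part for ACKR4 (75.1%), CXCL14 and CXCR4, and the line for ACKR3 (73.1%), CXCL16, CX3CL1 and CXCL12. With 5 lines against 2 groups, the line takes a larger part than the treatment even where neither has an effect.

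Among the genes themselves, CXCL14 and ACKR3 had the Pearson correlation of largest size over the 10 libraries, -0.87, with a Spearman correlation of -0.76, and CXCL14 and CXCR4 had the largest Spearman correlation, 0.82. For CXCL14 and ACKR3 the correlation of the deviations from the group means was -0.88, and line 5 had the most CXCL14 and the least ACKR3 in both groups. With PF alone the other lines did not keep this order. Line 2 had less CXCL14 than lines 1 and 4 (6.47 against 6.94 and 6.87) and also less ACKR3 (12.83 against 13.39 and 13.39). CXCL12 and its receptor ACKR3 had a correlation of -0.03. These 10 libraries come from 5 lines, and the values are descriptions without a test. The genes most like each of the 7 over the 10 libraries were also listed, 3 for each. For ACKR4 they were EFEMP2 (Pearson correlation 0.988), ANKRD40 (0.976) and PLS3 (0.975), for CXCL14 SMPD2 (0.969), BTBD16 (0.958) and MPDU1 (0.958), and for ACKR3 BAG5 (0.952), GBE1 (0.948) and DENND4A (0.941). For CXCL12 they were ZHX1 (0.930), IGF2 (0.918) and FAM20B (0.908), for CXCL16 VSIG10L (0.947), TEDC2 (0.932) and CSK (0.926), for CX3CL1 MSI2 (0.914), TTLL10 (0.889) and AGER (0.888), and for CXCR4 APOL5 (0.930), CSTA (0.909) and PPFIBP2 (0.881).

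The other genes of the pathway were read from lists of ligands, receptors, proteases, proteoglycans and signalling proteins. Of 81 listed genes, 75 were in the table, 10 were at the value of 0 reads in all libraries and 56 were tested, of which 8 were higher and 4 lower at the thresholds. Over all tested genes 3.11% were higher and 3.57% lower, and the lists were chosen with earlier results of these data known. CXCL11 and CD74 are among the 8, and both met the filter on reads mainly or solely through the libraries with IL-1β. With the line as a replicate block 10 were higher and 6 lower, beside 8.26% of all tested genes in either direction. The added genes were ADM, a peptide that ACKR3 takes up (log2 fold change 1.26, adjusted p = 0.1998 without and 0.0119 with the block from limma), the G protein regulator RGS4 (1.52, 0.144 and 0.0287), the arrestin ARRB1 (-1.10, 0.0545 and 0.0460) and the proteoglycan perlecan, HSPG2 (-1.12, 0.123 and 0.0367). Without the block, 12 genes passed with all lines, 6 without line 1, 6 without line 2 and 5 without line 5. CD74, CPM, MMP3 and FAP kept the call in each of the 15 fits without a line or a library. CXCL11 lost it without line 1 (adjusted p = 0.0677) or 2 (0.0657), MMP1 without line 1 (0.0678) or 5 (0.0919), and SDC3 without line 2 (0.0731) or 5 (0.0737). MMP9 lost it without line 1 (adjusted p = 0.103), 2 (0.0719) or 5 (0.0703), and RGS5 without the same lines (0.0540, 0.0563 and 0.0660). PREX1 was under the minimum fold change without line 5 (log2 fold change 0.95) or its library with IL-1β (0.97). SDC2 and RGS2 were the least stable and lost the call in 10 and 11 of the 15 fits, with adjusted p-values up to 0.108 and 0.182. SDC2 lost it without line 1, 2, 3 or 5, without the PF alone library of line 1, 4 or 5, and without the PF + IL-1β library of line 1, 2 or 5. RGS2 lost it without line 1, 2, 3 or 5, without the PF alone library of line 2, 4 or 5, and without the PF + IL-1β library of line 1, 2, 3 or 5, and also on the scale of log2(normalised count + 1) (adjusted p = 0.0550 from limma). With the line as a replicate block, SDC2 and RGS2 kept the call whichever line was left out, whereas MMP9 lost it without line 1 (adjusted p = 0.0592) or 2 (0.0503), RGS5 without line 2 (0.0501) and PREX1 without line 5 (log2 fold change 0.95).

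Of 8 other listed homeostatic chemokines 2 had enough reads to be tested, of 20 other receptors 5 were tested, and none (0) of these 7 passed the thresholds. Of them CCL28, a mucosal chemokine, had the smallest adjusted p among the chemokines, with no library above 5 estimated reads and a log2 fold change of 0.17 (adjusted p = 0.703 from limma). Among the receptors this was ACKR2, a scavenger of inflammatory CC chemokines, which was between 6.61 and 7.31 with PF alone and between 5.74 and 6.65 with PF + IL-1β. Its log2 fold change was -0.81 (adjusted p = 0.0343 from limma), below the minimum, with a lower value in 5 of 5 lines, as for ACKR3 and ACKR4. ACKR1, the erythrocyte and endothelial receptor that binds many inflammatory chemokines, reached a log2 value of 10.23 in 1 library with PF alone and varied widely, between 4.08 and 10.23 with PF alone and between 3.43 and 7.07 with PF + IL-1β (adjusted p = 0.605 from limma), and it was picked out after its values had been seen. The log2 fold change had a median of 0.21 over the chemokines and of -0.07 over the receptors.

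Of 6 other genes for ligands of CXCR4 and ACKR3 or their binding partners, 2 rose, 0 fell and the median log2 fold change was 0.63. CXCL11, the other chemokine that ACKR3 takes up, was listed at the value of 0 reads in 5 of 5 libraries with PF alone, and had 39, 52, 4, 109 and 5 estimated reads in lines 1 to 5 with PF + IL-1β. Its mean was at least 15.4-fold higher when the other group is set to 3 reads per library. CXCL11 met the filter on reads solely through the libraries with IL-1β and so had to differ, and its call is no support for the count of its list. CD74, which with CXCR4 binds the cytokine MIF and is the invariant chain of MHC class II, was between 3.43 and 5.64 with PF alone and between 6.55 and 10.11 with PF + IL-1β (log2 fold change 3.73, adjusted p = 0.00467 from limma). With PF alone CD74 had reads in 2 of 5 libraries, against 5 of 5 with PF + IL-1β. It met the filter on reads mainly through the libraries with IL-1β, and its call, too, is no support for the count of its list.

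Of 12 proteases that can cut chemokines, 11 were tested, 4 rose, 1 fell and the median log2 fold change was 0.73. Over all tested genes 3.11% rose and 3.57% fell. CPM, a carboxypeptidase that trims the end of CXCL12, rose (log2 fold change 3.77, adjusted p = 0.00263 from limma) and was higher in 5 of 5 lines. The matrix metalloproteinases MMP1 (log2 fold change 5.97, adjusted p = 0.0165), MMP3 (5.40, adjusted p = 0.00542) and MMP9 (2.09, adjusted p = 0.0182) rose as well. FAP, a membrane protease of activated fibroblasts, fell, with a log2 fold change of -2.38 (adjusted p = 0.00646). DPP4, the best known protease of CXCL12, was listed at the value of 0 reads in all 10 libraries.

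Of 11 proteoglycans that can hold chemokines at the cell surface or in the matrix, 0 rose, 2 fell and the median log2 fold change was -0.68. Both were syndecans, the cell surface heparan sulfate proteoglycans SDC2 (log2 fold change -1.61, adjusted p = 0.0265 from limma) and SDC3 (-1.87, adjusted p = 0.0146). Of 21 tested genes of receptor signalling and desensitization, 2 rose, 1 fell and the median was -0.10. The counts of both lists stand beside the 3.11% of all tested genes that rose and the 3.57% that fell. PREX1, an exchange factor that links G protein-coupled receptors to RAC, rose (log2 fold change 1.08, adjusted p = 9.39e-04 from limma). RGS2 and RGS5, which shorten G protein signals, went in opposite directions, with 1.80 (adjusted p = 0.0456) and -1.96 (adjusted p = 0.0106).

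**Figure D4:**
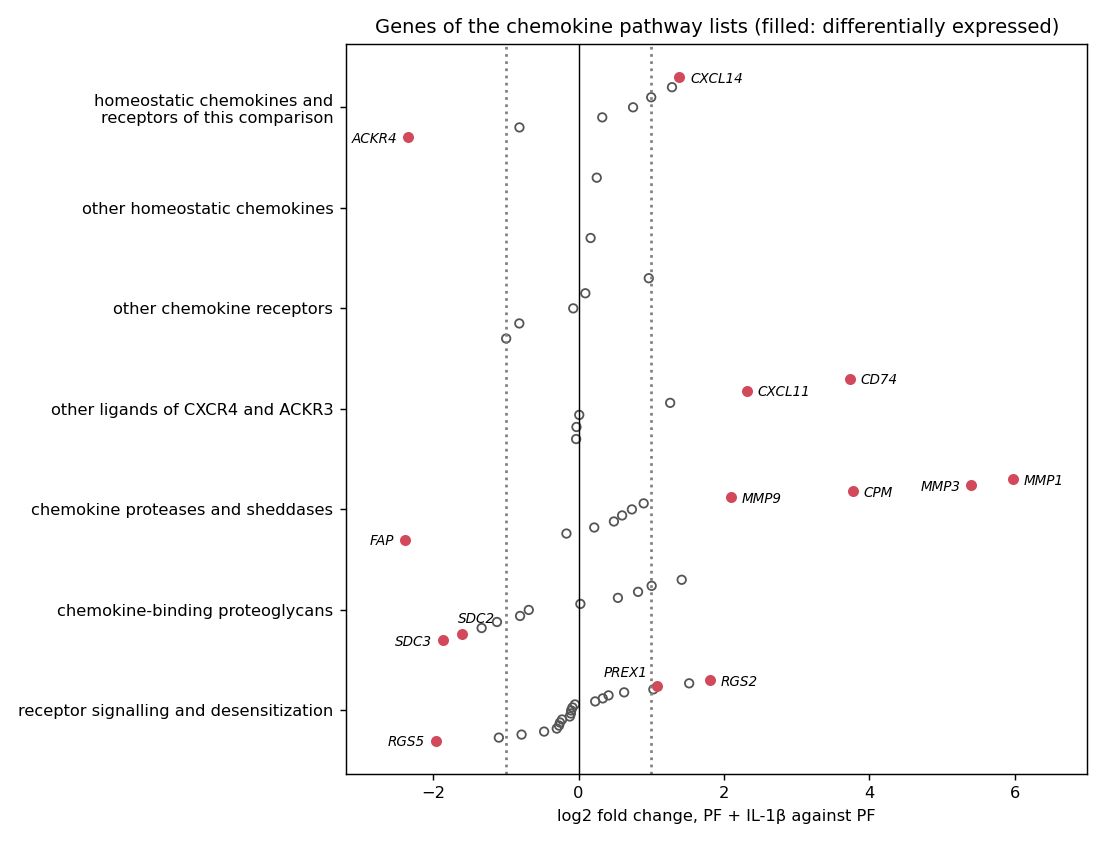
Log2 fold change, PF + IL-1β against PF alone (PF), of the 7 genes and of the 56 tested genes of the pathway lists, 1 row of points for each list. Filled points are the named genes that passed the thresholds, dotted lines mark the minimum fold change of 1, and the vertical spread within a list only separates the points. The fitted value of CXCL11 understates its change, since it had no reads with PF alone.

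RGS5 is also a marker of mural cells, and CXCL12, CX3CL1 and ACKR3 are known from vessels, so the markers of vessel cells and of epithelium were measured too. Of 6 mural cell markers 0 rose and 2 fell, beside 3.11% and 3.57% of all tested genes. Their summed normalised count lay between 29815 and 153849 with PF alone and between 33267 and 65903 with PF + IL-1β. It was lower in 4 of 5 lines. The largest parts of this sum were ACTA2 (means of 79129 and 32903) and PDGFRB (14039 and 10942), neither of which passed the thresholds. The 8 endothelial markers summed to between 16.3 and 51.5 and to between 5.12 and 30.7 normalised counts, lower in 5 of 5 lines. Of the 5 that were tested, 0 passed the thresholds, and they did not share a direction. VWF (log2 fold change -0.73), CLDN5 (-0.53) and KDR (-0.34) were lower, and PECAM1 (0.67) and TEK (0.51) were higher. The endothelial gene PECAM1 was between 3.43 and 4.15 with PF alone and between 3.43 and 5.22 with PF + IL-1β, higher in 4 of 5 lines (adjusted p = 0.168 from limma). The 6 epithelial markers summed to between 539 and 1574 and to between 45.4 and 444 normalised counts. EPCAM and KRT5 were at the value of 0 reads in all 10 libraries, and 1 of 3 tested genes was lower. This gene, CDH1, made up most of the sums (means of 785 and 182). KRT18 (log2 fold change -0.51) and KRT8 (0.13) did not pass. The part of these markers in the values of the chemokines and their receptors was not tested.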

How the data were processed

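Paired-end polyA RNA-seq of 10 libraries was analysed. Per the labels and the methods of the study, the authors checked reads with FastQC (version 0.11.9), quantified them on the EquCab3.0 transcriptome with Salmon (version 1.8) with GC-bias correction, summed them to genes and normalised them with DESeq2 (version 1.36). The deposited values are log2 values. The transformation is not named and was recognised as variance stabilization from the lowest value of 3.433 that all libraries share. No positions or lengths are given. A RefSeq table of another horse assembly also lists all 7 names.

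The tests used limma (3.58.1 under R 4.3.3) for genes with reads in 5 or more of the 10 libraries, with trended variances, no line term, as the study names none, and Benjamini-Hochberg adjustment over all 17992 genes. Adjusted p-values are from this fit unless the block, another scale or a left-out library or line is named beside them. Both libraries of a line come from the same horse. Their deviations from the group means had correlations between 0.367 and 0.506 over the 5 lines, against a mean of -0.107 over the 20 pairs of different lines.

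Normalised counts came from inverting the transformation at its value for 0 reads, and reads from the spacing of low values, of which between 62.6% and 82.5% per library were whole to within 0.15 of a read (30% if values were spread evenly). Read numbers are therefore approximate. On simulated counts of 17816 genes the fit called 79 of 100 genes changed by 1.5 and 95 of 100 changed by 3 on the log2 scale, and 6 unchanged genes.

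The 7 genes and the lists were chosen with earlier results of these data known. Named were the 7 genes, every gene of the pathway lists at the thresholds or the smallest adjusted p of a list without any, 6 markers of the label (SCX, MKX, TNMD, COL1A1, PTPRC and PECAM1), and for each of the 7 the 3 genes with symbols of highest Pearson correlation. Alternatives were the replicate block, the scale, filters, normalisation, variance models, other thresholds, and leaving out each library or line. Fits of the block without each line, and of the block without a minimum fold change, were added after the data had been seen.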

Additional observations from a re-analysis of the deposited data

Results flagged for a closer look

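In 2 of the 14 groups of 5 libraries of the 7 genes, 1 library stood apart from the other 4 by Dixon's criterion, where chance gives about 1 in 20 groups. CXCL16 was at 9.30 in line 1 with PF-06650833 alone, against 10.02 to 10.12 in the other lines, and without that library its log2 fold change was 0.17 (adjusted p = 0.501 from limma). CXCR4 was at 4.41 in line 5 with PF-06650833 alone, from 5 estimated reads, against the value of 0 reads in the other lines. With those 4 values tied, any read in line 5 would have been flagged. The rate of 1 in 20 therefore does not hold for this group.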

How the results depend on the processing

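The direction of the 7 genes was the same in all 237 fits of them under alternatives, and 221 of these kept the side of the thresholds. CXCR4 could not be tested among genes with reads in all 10 libraries, and leaving out a library did not repeat the filter on low values. Of the 7 genes, 1 passed at an adjusted p below 0.01, where CXCL14 (1.39) no longer did, and between 1 and 3 when a library or line was left out. Leaving out a library or line gave log2 fold changes of 1.13 to 1.63 for CXCL14 and 0.60 to 1.02 for CXCR4. With the replicate block, CX3CL1 passed without line 4 (1.30, adjusted p = 0.0456 from limma) and ACKR3 passed without a minimum fold change (-0.81). CXCR4 passed with the block without line 5 (1.02), where no PF alone library had reads and the groups had to differ. CXCR4 also passed with a pseudocount of 0.5 (2.62), but not with a pseudocount of 1 (1.95, adjusted p = 0.0544 from limma). The replicate block changed no other call of the 7 genes. Over all tested genes, 2782 passed without a minimum fold change, 3996 so with the replicate block, 1809 with the replicate block on log2(normalised count + 1) and 719 at the stricter adjusted p of 0.01, and between 762 and 1422 when a library or line was left out, where lines 1 (762), 2 (790) and 5 (777) lowered it most. Of the pathway lists 5 genes passed at the stricter p and 27 with the replicate block without a minimum fold change, and between 5 and 14 when a library or line was left out. The cause of these changes was not tested, apart from the thresholds themselves. Depth limits CXCR4, CXCR6, CX3CR1 and CCL28, with at most 8 estimated reads in any library.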
